A study of Mus musculus with 12 samples.

Results

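The hypoxia-inducible factor (HIF) system was described through 10 genes, chosen by name from the mRNA table of 4T1 mouse mammary tumours: the subunit genes Hif1a and Epas1, the oxygen sensors Egln1 and Egln3, and the target genes Car9, Bnip3, Ndrg1, P4ha1, Adm and Ankrd37. All 10 were found among the 22769 genes with values, and all 10 stood above the filter on low values that left 14098 genes for testing. Mice of the Balb/c strain carried tumours of the mammary carcinoma line 4T1, which were taken 35 days after inoculation. Animals of the stress group spent 2 hours of each of 28 consecutive days in restraint, and those of the control group were untreated. There were 3 mRNA and 3 miRNA libraries of whole tumour per group, so values mix carcinoma cells with the host's stroma and blood cells, and fewer cells of a type cannot be told apart from less RNA per cell. The labels do not say whether the tumours of a group came from separate mice, so p-values measure the spread between these libraries, which may be technical.

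HIF is a pair of proteins, an oxygen-regulated alpha subunit (HIF1A or EPAS1) and the constitutive partner ARNT. When oxygen is plentiful, the EGLN prolyl hydroxylases mark the alpha subunit, the VHL ubiquitin ligase binds the mark and the subunit is degraded. When oxygen is short, the alpha subunit escapes, enters the nucleus and switches on genes for glycolysis, acid handling, autophagy of mitochondria, collagen modification and vessel growth, in solid tumours most of all in poorly perfused areas. Because this switch acts on the protein, the mRNA of Hif1a need not follow the activity of the pathway, whereas target mRNAs are commonly read as its output.

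The mRNA values were deposited on a log scale, taken to be log2, and their sequencing depth is unknown. The miRNA libraries held 1738056 to 2674483 counts in the stress group and 2090783 to 3202224 in the control group. The carcinoma markers matched the tissue label. Of these 10 epithelial genes 9 were tested, and their mean lay between 10.99 and 11.29 in stress and between 11.10 and 11.29 in control libraries. The basal keratin Krt5, the other one, averaged only 0.0973.

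The target and sensor genes among the members had higher means in the stressed tumours, and the subunit genes did not. Among the higher genes, the sensor Egln1 had the smallest difference (0.24), with overlapping groups. The 8 members other than Hif1a and Epas1 all had a positive difference, with a median of 0.69 on the log2 scale, against a median of 0.0014 over all genes tested. In 6 of the 10 members every stress library lay above every control library, as in 12.1% of all genes tested, and in none did every stress library lie below, as in 12.3%. None of the 10 passed limma's threshold, an adjusted p of 0.05 over all genes, which 0.0213% of all genes passed upwards and 0.0142% downwards. At an unadjusted p under 0.05, 7 members were higher and 0 lower, against 8.26% and 9.15% of all genes. Where an exact permutation test of 3 against 3 libraries is given for a single quantity, its smallest possible p is 0.1. The threshold over all genes left only 3 genes called higher and 2 lower.

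**Figure D1:**
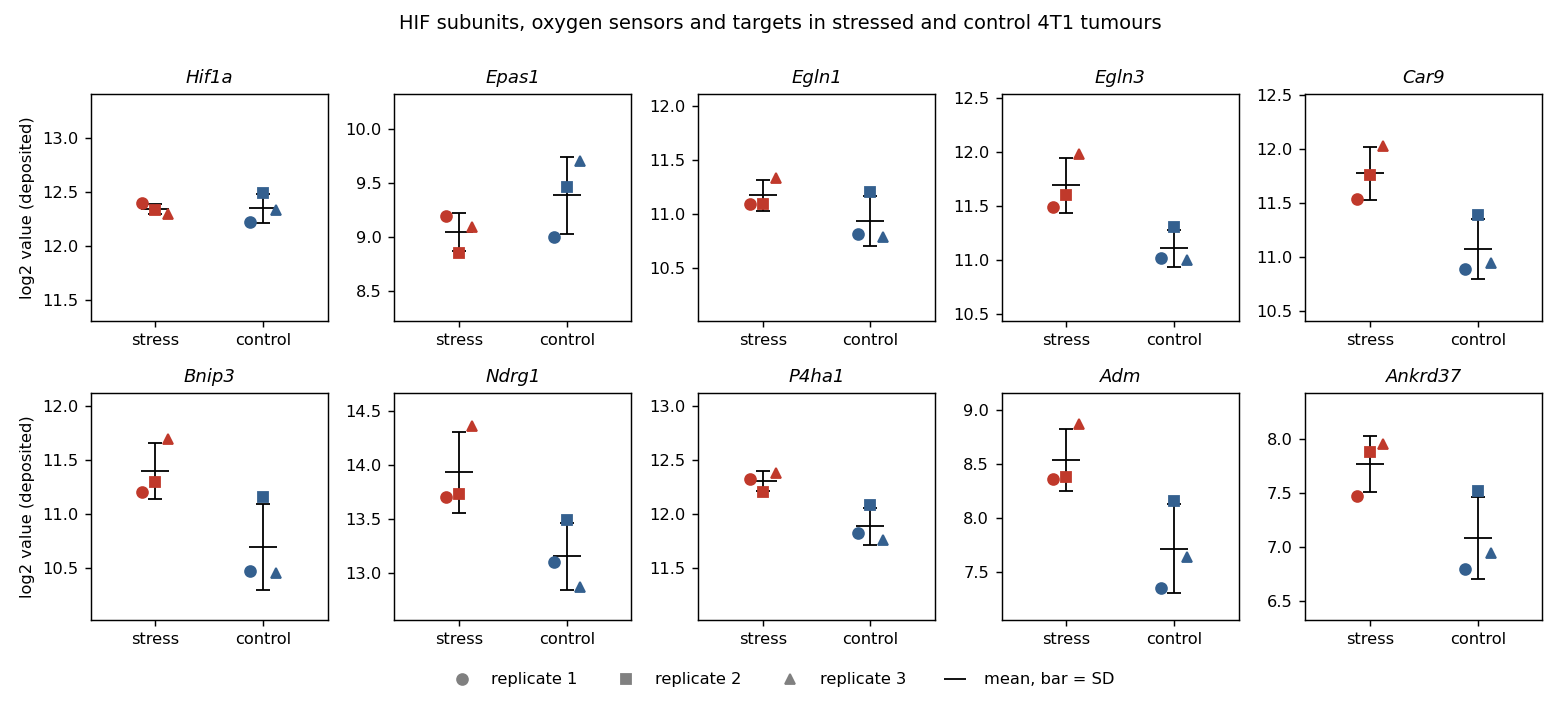
Deposited log2 values (vertical axis, each panel spanning the same log2 range) of the 10 genes in the 3 stress and 3 control libraries; marker shapes give the replicate number, the horizontal dash the mean and the bar the SD. Egln3, Car9, Bnip3, Ndrg1, P4ha1 and Adm had all stress libraries above all control libraries, while Hif1a, Epas1, Egln1 and Ankrd37 overlapped.

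The subunits came first in the chain and showed the smallest or the opposite differences. Hif1a (chromosome 12, 73901375 to 73947530, plus strand) had log2 values of 12.40, 12.33 and 12.30 in stressed tumours, against 12.23, 12.50 and 12.33 in control tumours. The stress libraries lay wholly inside the control range. The means were 12.35 ± 0.05 in stress and 12.35 ± 0.14 in control (SD, n = 3 each), a difference of -0.0081 ± 0.0747 (SE, limma adjusted p = 0.968). The 95% interval ran from -0.18 to 0.17. The annotation places exons of an antisense gene, Gm15283, and of a same-strand gene, Gm49321, over exons of Hif1a. Neither is among the genes with values. Reads from them cannot be told apart from Hif1a reads unless the counting separated them. The sources used here name the counter, kallisto, but give nothing on how it treated these genes.

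Epas1 encodes the other oxygen-regulated alpha subunit, known for its expression in endothelial cells. Its gene lies on chromosome 17 (86753700 to 86833410, plus strand). It had log2 values of 9.20, 8.85 and 9.09 in stressed tumours, against 8.99, 9.46 and 9.70 in control tumours. Control replicates 2 and 3 lay above all stress libraries, and control replicate 1 lay among them. The difference was -0.34 ± 0.18 (SE; 95% interval -0.77 to 0.08, limma adjusted p = 0.373), and 97.2% of all genes tested had a larger one. It was -0.53 without control replicate 1 (adjusted p = 0.133) and -0.18 without control replicate 3 (adjusted p = 0.688). All 12 endothelial markers were lower in the same libraries, with a median of -0.28. Their mean was between 8.54 and 8.70 in stress and between 8.81 and 9.06 in control. Within each library, Epas1 stood 0.50, 0.31 and 0.48 above that endothelial mean in stress and 0.16, 0.65 and 0.64 above it in control. This distance averaged 0.43 in stress and 0.48 in control and overlapped between the groups (difference -0.05, exact two-sided permutation p = 0.8, adjusted p = 0.8 over 8 such within-library quantities). The part of endothelial cells in the Epas1 difference was not tested.

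Of the EGLN sensors, Egln3 had the larger difference. Egln1 (chromosome 8, 124908587 to 124949324, minus strand), which encodes PHD2, the main HIF prolyl hydroxylase in normal oxygen, had log2 values of 11.09, 11.09 and 11.34 in stressed tumours, against 10.82, 11.21 and 10.79 in control tumours. Control replicate 2 lay above stress replicates 1 and 2. The difference was 0.24 ± 0.12 (SE, limma adjusted p = 0.371). Egln3 (chromosome 12, 54178981 to 54203860, minus strand), which encodes PHD3 and is itself strongly induced by HIF, had 11.49, 11.60 and 11.98 in stressed tumours, against 11.02, 11.30 and 11.00 in control tumours. Its groups did not overlap. The difference was 0.58 ± 0.14 (SE; 1.50-fold, limma adjusted p = 0.135).

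Set against each other within a library, which cancels any scaling of the library, Egln3 minus Egln1 was 0.40, 0.51 and 0.64 in stress and 0.20, 0.10 and 0.20 in control. The 3 stress libraries all had more Egln3 per Egln1 than any control library, control replicate 2 included. The shift was 0.35 on the log2 scale, with an exact two-sided permutation p of 0.1, the smallest this design gives, and an adjusted p of 0.267 over the 8 within-library quantities. Egln2, the third EGLN gene, had a difference of -0.04 ± 0.06 (SE, limma adjusted p = 0.716). Egln3 minus Egln2 was 2.24, 2.26 and 2.67 in stress and 1.66, 2.01 and 1.61 in control, again without overlap (exact permutation p = 0.1, adjusted p = 0.267).

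Among the targets, Car9 (chromosome 4, 43506966 to 43513729, plus strand) encodes carbonic anhydrase IX, a membrane enzyme that helps hypoxic cells export acid and a widely used tissue marker of hypoxia. It had log2 values of 11.54, 11.76 and 12.03 in stressed tumours, against 10.89, 11.39 and 10.94 in control tumours. The groups did not overlap, and control replicate 2 came nearest to the stress libraries, 0.15 below the lowest of them. The difference was 0.70 ± 0.17 (SE; 1.63-fold, 95% interval 0.31 to 1.09, limma adjusted p = 0.135). Exons of an antisense gene, Gm12454, overlap exons of Car9.

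Bnip3 (chromosome 7, 138890836 to 138909519, minus strand) encodes a mitochondrial protein that promotes mitophagy. It had 11.20, 11.30 and 11.69 in stressed tumours, against 10.48, 11.15 and 10.45 in control tumours. The groups were separated by only 0.05, the distance between stress replicate 1 and control replicate 2. The difference was 0.70 ± 0.21 (SE; 1.63-fold, limma adjusted p = 0.186). Its paralog Bnip3l, which also acts in mitophagy, was 0.42 ± 0.12 higher (SE, adjusted p = 0.158). Within libraries Bnip3 minus Bnip3l was -0.31, -0.10 and -0.15 in stress and -0.58, -0.11 and -0.71 in control. Those values overlapped (exact permutation p = 0.3, adjusted p = 0.4), so a larger response of Bnip3 than of Bnip3l was not shown. Exons of an antisense gene, Gm45507, overlap exons of Bnip3.

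Ndrg1 (chromosome 15, 66929318 to 66969640, minus strand), a hypoxia- and stress-responsive gene linked to differentiation and to suppression of metastasis in several cancers, had 13.70, 13.73 and 14.36 in stressed tumours, against 13.10, 13.49 and 12.87 in control tumours. Stress replicate 3 stood 0.64 above the next library, and the groups did not overlap. The difference was 0.78 ± 0.22 (SE; 1.71-fold, limma adjusted p = 0.165). Exons of Gm17035 and Gm2895, both on the opposite strand, overlap exons of Ndrg1. P4ha1 (chromosome 10, 59323296 to 59373304, plus strand) encodes the catalytic subunit of collagen prolyl 4-hydroxylase, which stabilises the collagen triple helix. It had 12.33, 12.21 and 12.38 in stressed tumours, against 11.82, 12.08 and 11.76 in control tumours. Its groups did not overlap, and its stress libraries were the closest to each other among the 8 members that were higher (SD 0.09). The difference was 0.42 ± 0.09 (SE; 1.34-fold, limma adjusted p = 0.120), the smallest adjusted p of the 10 members. Fibroblast markers, which include the collagen genes Col1a1, Col1a2 and Col3a1, were lower in 10 of 11 cases, with a median of -0.52 and a library mean between 11.22 and 11.46 in stress and between 11.47 and 12.18 in control.

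Adm (chromosome 7, 110627661 to 110629820, plus strand) encodes adrenomedullin, a secreted vasodilator peptide that acts on vessels. It had log2 values of 8.37, 8.38 and 8.87 in stressed tumours, against 7.35, 8.16 and 7.64 in control tumours. The groups did not overlap. The difference of 0.82 ± 0.22 (SE; 1.77-fold, limma adjusted p = 0.159) was the largest of the 10, and 0.0922% of all genes tested had a larger one. Ankrd37 (chromosome 8, 45996902 to 46005707, minus strand) encodes an ankyrin repeat protein and is known mainly as a direct HIF target. It had 7.48, 7.89 and 7.96 in stressed tumours, against 6.80, 7.52 and 6.94 in control tumours. Control replicate 2 lay 0.04 above stress replicate 1, so the groups overlapped. The difference was 0.69 ± 0.21 (SE; 1.61-fold, limma adjusted p = 0.183). Exons of Ufsp2 and Lrp2bp on the opposite strand overlap exons of Ankrd37. Ufsp2 differed by 0.07 ± 0.07 (SE, adjusted p = 0.620), and Lrp2bp averaged 3.73, below the filter.

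**Figure D2:**
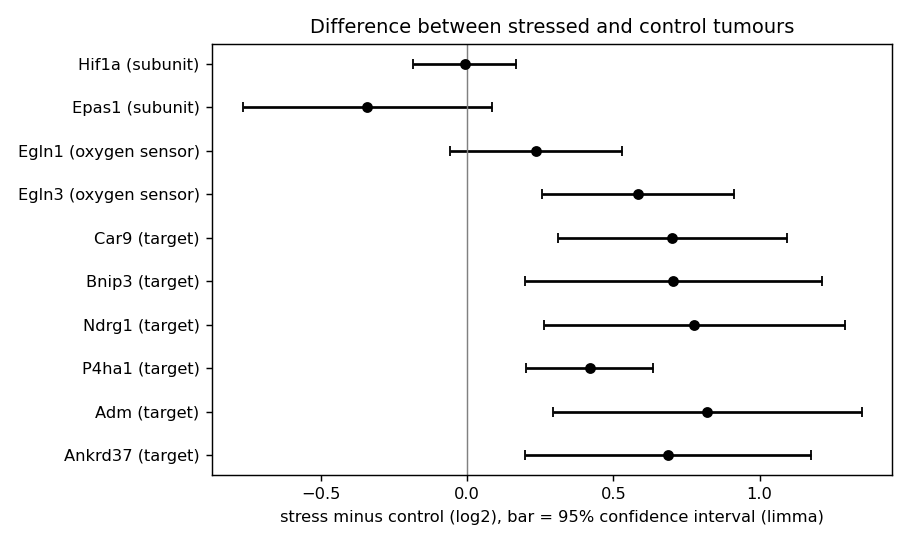
Stress minus control difference on the log2 scale (horizontal axis) for each of the 10 genes, with 95% confidence intervals from limma that are not adjusted for the number of genes. The 7 intervals of Egln3 and the target genes lie above 0, with estimates from 0.42 to 0.82, while those of Hif1a, Epas1 and Egln1 cross 0.

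HIF binds DNA at a short core, ACGTG or GCGTG, which reads CACGT or CACGC on the other strand. The core ACGTG also lies within the E-box CACGTG, a site of MYC and of clock factors. RefSeq promoter windows (GRCm38.p6, 250 bases before to 50 after the RefSeq start) were matched for 8 of the 10 members. That start can differ from the gene boundaries given above. The windows of Hif1a and Ankrd37, the core of Car9 and the nearer core of Egln1 lie inside those boundaries. The members not matched are Epas1 and Ndrg1. All 8 windows held the core and 6 held it more than once, against 43.8% and 20.6% of 32851 windows of the same length. The members' windows were rich in G and C (54.7% to 86.0%), and of the 19938 windows with at least 50% G or C, 56.9% held the core and 29.5% held it more than once. The 4 windows below show the core in a target with a single copy just upstream of the start (Car9), in the target with most copies (Bnip3), in the member with the smallest adjusted p (P4ha1) and in the subunit gene with the smallest difference (Hif1a). Capitals mark the core on either strand, and the sequences run 5′ to 3′ along the gene.
Car9 (chr4:43506776-43507075, plus strand): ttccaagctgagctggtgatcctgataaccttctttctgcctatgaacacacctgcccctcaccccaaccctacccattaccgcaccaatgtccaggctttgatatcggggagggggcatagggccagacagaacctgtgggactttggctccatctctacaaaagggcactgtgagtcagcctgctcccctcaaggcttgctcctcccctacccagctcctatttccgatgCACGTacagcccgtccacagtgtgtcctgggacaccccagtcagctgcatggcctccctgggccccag
Bnip3 (chr7:138909457-138909756, minus strand): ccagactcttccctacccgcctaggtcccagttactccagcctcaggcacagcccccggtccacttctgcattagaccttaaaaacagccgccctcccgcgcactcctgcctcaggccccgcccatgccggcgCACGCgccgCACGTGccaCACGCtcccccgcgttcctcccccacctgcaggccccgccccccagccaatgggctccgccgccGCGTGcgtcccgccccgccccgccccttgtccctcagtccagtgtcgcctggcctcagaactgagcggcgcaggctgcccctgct
P4ha1 (chr10:59323046-59323345, plus strand): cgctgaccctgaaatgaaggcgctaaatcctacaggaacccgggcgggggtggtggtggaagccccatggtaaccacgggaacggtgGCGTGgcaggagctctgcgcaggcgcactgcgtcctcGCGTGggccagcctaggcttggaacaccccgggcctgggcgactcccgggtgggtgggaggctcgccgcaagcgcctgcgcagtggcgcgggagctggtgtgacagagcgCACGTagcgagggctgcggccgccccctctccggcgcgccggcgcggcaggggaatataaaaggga
Hif1a (chr12:73907617-73907916, plus strand): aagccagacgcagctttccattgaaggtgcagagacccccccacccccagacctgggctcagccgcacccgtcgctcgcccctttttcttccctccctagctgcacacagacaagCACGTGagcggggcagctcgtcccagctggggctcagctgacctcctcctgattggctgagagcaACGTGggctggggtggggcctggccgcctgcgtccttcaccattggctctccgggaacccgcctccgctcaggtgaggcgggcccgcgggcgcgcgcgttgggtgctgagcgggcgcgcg
In Car9 the only core starts 18 bases upstream of the RefSeq start. Bnip3 had 5 matches, of which CACGT at 108 bases and ACGTG at 107 bases upstream are the same E-box read on both strands. P4ha1 had 3 matches, the nearest 16 bases upstream. Hif1a, whose level hardly differed between the groups, had 3 as well, of which a pair is again 1 E-box. Every matched window held the core, and among the matched members only Hif1a was not higher. These windows therefore cannot show whether the core goes with higher values. A match describes letters in these windows and does not show binding.

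The 8 sensor and target genes followed nearly the same order of libraries. Stress replicate 3 was the highest library for all 8, control replicate 2 was the highest control for all 8, and stress replicate 1 was the lowest stress library for 7. The lowest library was control replicate 3 for 5 of the 8 and control replicate 1 for 3. Their mean log2 value was 10.90, 11.00 and 11.33 in stress replicates 1 to 3 and 10.28, 10.79 and 10.30 in control replicates 1 to 3. Control replicate 2 thus lay nearer to stress replicate 1 than to either of the other controls. For each of the 8 genes it exceeded the mean of the other controls, by 0.29 (P4ha1) to 0.69 (Bnip3). Compared with the other controls alone, the stress libraries were 0.37 (Egln1) to 1.04 (Adm) higher. For Egln1 the difference was 0.24 with all controls, 0.37 without control replicate 2 and 0.15 without stress replicate 3, and the stress mean minus control replicate 2 alone was -0.03. The other 7 genes had a stress mean above control replicate 2, by 0.22 (P4ha1) to 0.44 (Ndrg1).

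**Figure D3:**
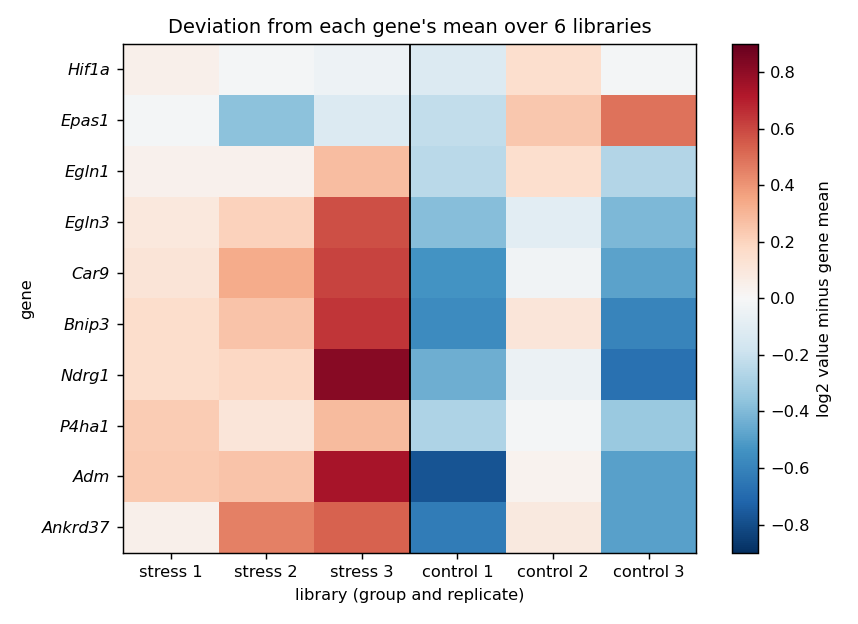
Each gene's deposited log2 value in each library minus its mean over the 6 libraries, as colour (red above, blue below), with stress libraries left of the line and control libraries right of it. The 8 rows from Egln1 to Ankrd37 are darkest red in stress replicate 3 and blue in control replicates 1 and 3, with control replicate 2 between. Hif1a is near white. Epas1 lies below its mean in the stress libraries and in control replicate 1, and above it in control replicates 2 and 3.

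Among the 8, Car9 lay closest to the average profile of the other 7 (root mean square distance 0.07 on the log2 scale) and Egln1 farthest (0.23). Relative to Hif1a in the same library, the mean of the 8 was -1.50, -1.34 and -0.98 in stress and -1.94, -1.71 and -2.03 in control. The stress libraries were higher without overlap, by 0.62 (exact permutation p = 0.1, adjusted p = 0.267). Epas1 minus Hif1a was -3.20, -3.49 and -3.22 in stress and -3.23, -3.04 and -2.63 in control, which overlapped (exact permutation p = 0.3, adjusted p = 0.4). These distances are comparable between libraries, but not as levels between genes, since the values are not per length.

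Outside the 10 members, the tested genes with the nearest profile to the mean of the 8 were Ppp1r15a, Ciart, Ier3, Atf3 and Proser2, at distances of 0.07 to 0.10 against a median of 0.38 over all other genes, on 6 libraries. Genes picked this way take on much of the difference of the profile they match. The differences given here for such genes are therefore description and not separate results. Ppp1r15a encodes the phosphatase subunit that ends the integrated stress response, and it was 0.62 ± 0.17 higher (SE, limma adjusted p = 0.165). Atf3, a stress-induced transcription factor, was 0.59 ± 0.14 higher (SE, limma adjusted p = 0.138), and Ciart, a repressor of the circadian clock, 0.64 ± 0.15 (SE, limma adjusted p = 0.129). Ier3, an immediate early gene, was 0.61 higher and Proser2 0.46 higher, neither past the threshold (limma adjusted p = 0.220 and 0.183). Nearest to Epas1 were Rnf150, Cyp7b1 and Adam23, with differences of -0.31, -0.42 and -0.35. Nearest to Hif1a were Lpin3, Ms4a8a and Snx27, with differences of -0.02, -0.04 and -0.03.

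The rest of the oxygen-sensing machinery had differences of both signs, from -0.15 to 0.35. Of 13 further genes for HIF partners, hydroxylases, the VHL complex and coactivators, 7 were higher and 6 lower, with a median of 0.03, and limma called none. The groups did not overlap in 4, all higher: Arnt, Arnt2, Crebbp and Cited2. That is 30.8% of the list without overlap and higher and 0% without overlap and lower, against 12.1% and 12.3% of all genes tested. Arnt, the constitutive partner of both alpha subunits, had log2 values of 10.72, 10.80 and 10.73 in stress and 10.58, 10.64 and 10.57 in control. It was 0.16 ± 0.05 higher (SE, adjusted p = 0.186). Crebbp, a coactivator that binds the HIF alpha subunits, had 10.81, 10.87 and 10.95 in stress and 10.54, 10.65 and 10.58 in control, a difference of 0.29 ± 0.06 (SE, adjusted p = 0.110). Cited2, a HIF target whose protein competes with HIF for these coactivators, was 0.35 ± 0.12 higher (SE, adjusted p = 0.219), with stress replicate 3 again the highest library (11.02). Vhl itself was at 8.60, 8.48 and 8.41 in stress and 8.45, 8.42 and 8.51 in control (difference 0.03 ± 0.07, SE). Hif1a minus Arnt within libraries was 1.67, 1.54 and 1.57 in stress and 1.65, 1.86 and 1.77 in control, with overlap (exact permutation p = 0.2, adjusted p = 0.4).

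Other HIF targets outside glycolysis were higher in most cases. Of 26 such genes, 23 were higher and 3 lower, with a median of 0.37, and in 13 (50%) the groups did not overlap, all higher. Of all genes tested, 12.1% were higher without overlap and 12.3% lower. Limma called none of the 26. Kdm3a, a histone demethylase that is a direct HIF target, had log2 values of 11.49, 11.59 and 11.65 in stress and 10.76, 11.13 and 10.82 in control. It was 0.68 ± 0.10 higher (SE, adjusted p = 0.0769), and the histone demethylase gene Kdm4b 0.57 ± 0.11 (SE, adjusted p = 0.111). Without control replicate 2, Kdm3a (0.79, adjusted p = 0.0440) and the cyclin gene Ccng2 (0.71, adjusted p = 0.0440) passed the threshold; over all alternatives tried for Kdm3a the adjusted p ran up to 0.308. Lower genes included Ndufa4l2 (-0.27) and Ppfia4 (-0.42), each with overlapping groups. P4ha2, the paralog of P4ha1, was 0.30 ± 0.19 higher (SE, adjusted p = 0.440), with control replicate 2 (10.68) level with stress replicate 1 (10.68). P4ha1 minus P4ha2 within libraries did not separate the groups (exact permutation p = 0.6, adjusted p = 0.686).

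The glycolytic HIF targets, set beside the members for scale, were higher in 16 of 17 cases with a median of 0.29. In 11 (64.7%) the groups did not overlap, all higher, against 12.1% higher and 12.3% lower of all genes tested. Limma called none of the 17. The median of the 17 was 0.18 without stress replicate 3 and ran up to 0.38 when other single libraries were left out. Their leading genes were Pfkfb3 (0.59 ± 0.07, SE, adjusted p = 0.0647) and Pdk1 (0.43 ± 0.08, SE, adjusted p = 0.104). Slc2a1, the glucose transporter GLUT1, had the largest difference of the 17 (0.83, adjusted p = 0.153). Their mean by library was 12.47, 12.48 and 12.72 in stress and 12.15, 12.37 and 12.16 in control, so that control replicate 2 was again the highest control and stress replicate 3 the highest library. The median of the 8 members was larger than that of both other target lists, and the difference between lists was not tested.

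**Figure D4:**
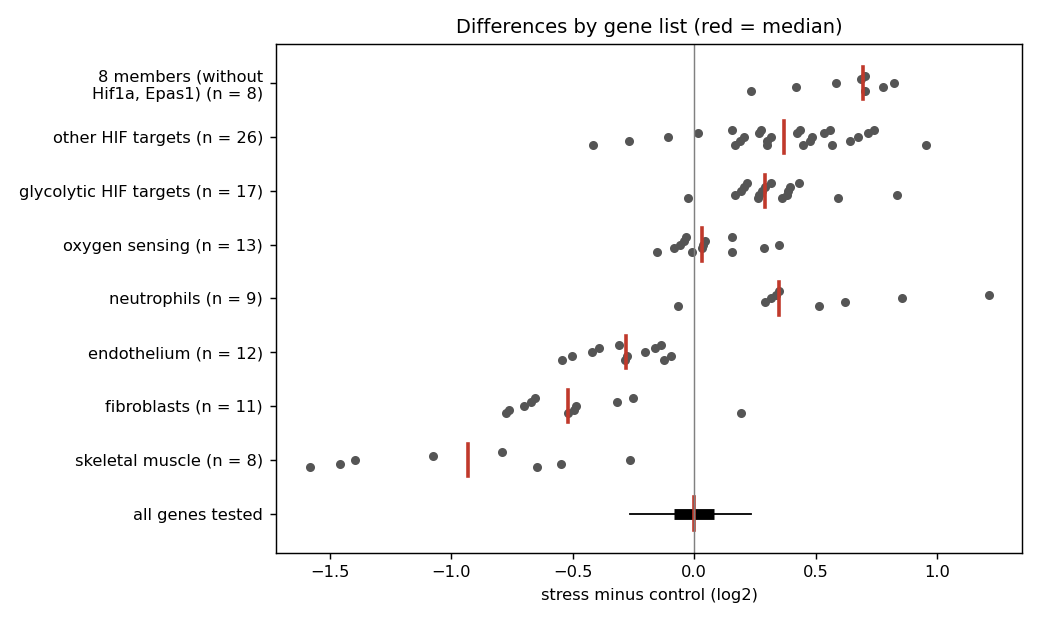
Stress minus control difference on the log2 scale (horizontal axis) for each tested gene (dots) of the target lists, the oxygen-sensing list and 4 cell type marker lists; red bars are medians. For all genes tested the thick bar spans the quartiles and the thin line the 5th to 95th percentile (-0.26 to 0.23); the medians are 0.69 for the 8 members, 0.37 and 0.29 for the other target lists and 0.03 for oxygen sensing.

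Markers of other cell types differed in the same libraries. Neutrophil markers were higher in 8 of 9 tested cases (median 0.35), with a library mean of 8.02, 7.70 and 8.36 in stress and 7.54, 7.45 and 7.61 in control. Ly6g, the tenth neutrophil marker, averaged -0.0948 and was not tested. Skeletal muscle markers were lower in all 8 cases (median -0.93), with a library mean of 8.86, 9.04 and 7.70 in stress and 8.74, 9.76 and 10.01 in control. Stress replicate 3, the highest library for the HIF targets, thus had the highest neutrophil and the lowest muscle mean. Control replicate 2, the highest control for the targets, had the lowest neutrophil mean and the lowest T and NK cell mean (6.17) of all libraries. It also had the highest mean of all libraries for fibroblast (12.18), adipocyte (7.80) and red blood cell markers (8.22). Macrophage markers had a median of -0.03 (3 of 8 higher), T and NK cell markers of -0.09 (2 of 9 higher) and red blood cell markers of -0.05 (2 of 5 tested higher). The 3 adipocyte markers that were tested were lower (median -0.67), and all 4 B cell markers lay below the filter. Limma called no marker. The part of these cells in the values of the HIF genes was not tested.

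The miRNA libraries held the classical hypoxia-induced miRNA, miR-210-3p, whose gene is a direct HIF target. Mature sequences from RefSeq (GRCm38.p6) are shown for it, for miR-107-3p and miR-199a-5p, which had the smallest edgeR p-values of the listed miRNAs, and for the pair of listed miRNAs with one shared seed; capitals mark the seed, bases 2 to 8.
miR-210-3p (chr7:141221407-141221428, minus strand): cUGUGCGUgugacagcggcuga
miR-107-3p (chr19:34820700-34820722, minus strand): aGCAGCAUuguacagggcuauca
miR-199a-5p (chr1:162217844-162217866, plus strand): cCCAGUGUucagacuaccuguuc
miR-17-5p (chr14:115043684-115043706, plus strand): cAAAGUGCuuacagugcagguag
miR-20a-5p (chr14:115044183-115044205, plus strand): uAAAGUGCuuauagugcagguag
The gene for miR-199a-5p has a second copy on chromosome 9 with the same mature sequence. MiR-210-3p had 3786, 2919 and 2620 counts in stressed tumours, against 2713, 2939 and 3405 in control tumours, or 1431, 1297 and 1655 CPM (counts scaled to a common library size, TMM-normalized) against 1243, 1072 and 1110. All stress libraries lay above all control libraries in CPM, as for 12.1% of the 462 miRNAs tested; 14.3% lay wholly below. It averaged 1461 ± 181 CPM in stress and 1142 ± 89.4 CPM in control (SD, n = 3 each). The log2 difference was 0.36 ± 0.15 (SE, edgeR adjusted p = 0.209, unadjusted p = 0.0499), and DESeq2 gave 0.34 (adjusted p = 0.137). Its passenger arm miR-210-5p, with 11 to 26 counts in stress and 13 to 38 in control libraries, overlapped between the groups (0.03 ± 0.38, SE).

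None of the 9 listed miRNAs passed edgeR's threshold, and edgeR called no miRNA at all, either higher (0% of 462) or lower (0%). At an unadjusted p under 0.05 edgeR had 40 miRNAs higher (8.66%) and 70 lower (15.2%), and DESeq2 called 11 higher (2.38%) and 33 lower (7.14%) at an adjusted p under 0.05. MiR-107-3p, reported in human cells to target ARNT mRNA, had 501, 500 and 502 CPM in stress, against 359, 408 and 326 in control. Its groups did not overlap, and the difference was 0.46 ± 0.16 (SE, edgeR adjusted p = 0.169), which DESeq2 called (0.45, adjusted p = 0.0384). MiR-199a-5p, reported in rat cardiac cells to target Hif1a mRNA, had 899, 1104 and 748 CPM in stress, against 879, 2531 and 2033 in control. Control replicate 1 lay among the stress libraries. The difference was -0.98 ± 0.37 (SE, edgeR adjusted p = 0.181). It passed without control replicate 1 (-1.29, adjusted p = 0.00558, over alternatives that ranged up to 0.462). In that setting edgeR called 18 miRNAs higher and 64 lower. MiR-17-5p (0.06 ± 0.15, SE) and miR-20a-5p (0.09 ± 0.17, SE), which share the seed AAAGUGC, overlapped between the groups, as did miR-322-5p (0.06), miR-155-5p (-0.13) and miR-138-5p (-0.67), the last with 7 to 29 counts a library. The labels do not tie an mRNA library to a miRNA library of the same tumour, so no value was compared across the tables by library.

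**Figure D5:**
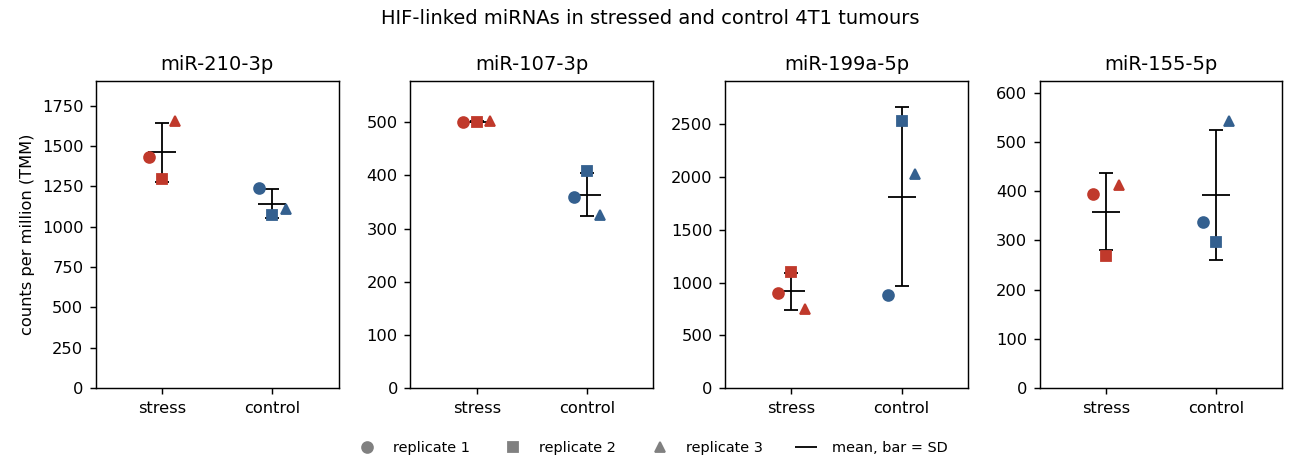
TMM-normalized CPM (vertical axis, from 0) of 4 HIF-linked miRNAs in the 3 stress and 3 control libraries; marker shapes give the replicate number, the dash the mean and the bar the SD. MiR-210-3p and miR-107-3p have all stress libraries above all control libraries, while miR-199a-5p and miR-155-5p overlap.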

How the data were processed

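RNA of whole tumours was sequenced as mRNA and as miRNA, 6 libraries each, and grouped by title. Although its name speaks of raw counts, the mRNA file holds log2 values, normalized by the authors before deposit. They are fractional and partly below 0, and as powers of 2 they sum to between 1.69e+07 and 1.77e+07 per library; base 2 is an assumption. Per the submitters' processing notes, kallisto 0.46.1, bcl2fastq and mm10 were used, and how the log values were made from kallisto output was not given in the sources used here. Their spread over the 6 libraries shrinks at low values (median range 0.0773 for genes averaging 2 to 3, 0.262 for 9 to 10), so differences of weak genes are probably understated. The deposited miRNA table holds raw counts from a counter not given in the sources used here.

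Of 35453 mRNA rows, 12658 listed at 0 in all libraries and 26 with a date for a symbol were left out. Stress was compared with control by limma 3.58.1 (lmFit; eBayes, trend, robust) on the 14098 genes whose mean log2 value reached 4. The 1978 mature miRNAs (1 precursor row each) were tested with edgeR 4.0.16 (TMM, filterByExpr, robust quasi-likelihood, 462 kept) and, as an alternative, DESeq2 1.42.0, in R 4.3.3. Tests were two-sided, without covariates, and adjusted by Benjamini and Hochberg over each table; scripts were tested on simulated data. The members, the lists and the tests were chosen with earlier results of these data known. All 10 members were named, with the 2 genes of smallest p per pathway list, the listed miRNAs and the genes of nearest profile; other genes were named after their values were seen. Gene positions came from GENCODE M21 on GRCm38. Alternatives were other filters, scalings and variance models, a replicate block and leaving out each library.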

Additional observations from a re-analysis of the deposited data

How the results depend on the processing

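No HIF member was called under any of the 13 alternatives tried for the mRNA table, and 9 of the 10 members kept their direction in all of them. Hif1a ran from -0.0705 without control replicate 1 to 0.0639 without control replicate 2 and was 0.0125 without stress replicate 3. Over these alternatives the adjusted p of P4ha1 ran from 0.107 to 0.342 and that of Car9 from 0.124 to 0.352. The median of the 8 members ran from 0.56 to 0.88 when single libraries were left out. For the oxygen-sensing list the median was -0.0035 without stress replicate 1, 0.0707 without stress replicate 3 and 0.0053 after quantile normalization. Of the other targets, 0 to 2 were called when single libraries were left out.

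Over all genes, leaving out single libraries gave 0 to 4 called higher and 0 to 2 called lower; 7 were called lower with a mean of at least 6 and 5 after quantile normalization. With the replicate block 0 were called higher and 0 lower. Same-numbered libraries did not consistently deviate together. Their correlations were -0.079, 0.0815 and -0.0183 for mRNA and -0.483, 0.314 and -0.13 for miRNA (replicates 1 to 3). For both, only stress replicate 2 correlated best with the control of its own number, so the numbers are not taken as pairs. Lpin3 turned to 0.0098 after quantile normalization; without single libraries it ran from -0.0982 to 0.0480, Ms4a8a from -0.0992 to 0.0489 and Snx27 from -0.0906 to 0.0307, each highest without control replicate 2.

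For miRNAs, DESeq2 called 11 higher, 33 lower and 1 of the listed ones; edgeR without a filter called 18 higher and 51 lower. Leaving out single libraries gave 0 to 18 higher, 0 to 64 lower and 0 to 1 listed. MiR-210-3p kept its direction (0.26 to 0.46, adjusted p 0.103 to 0.489). MiR-210-5p was -0.0166 with all precursor rows and ran from -0.15 to 0.49 without single libraries, and miR-155-5p from -0.29 to 0.18. The depth of the mRNA libraries is unknown. Low counts limit miR-210-5p and miR-138-5p.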
